A study of Homo sapiens with 8 samples.

Results

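macroH2A1 was mapped in HepG2 cells over 6 genes of the paired-like homeobox family, PITX1, PITX3, ALX1, ALX4, OTX1 and OTX2. The 6 genes were selected on their domain coverage and borders in the 4 anti-macroH2A1 libraries and on the tested regions near them, and each was described over its RefSeq span on hg38 with 100 kb on either side, called its locus here. They are 6 of the 20037 protein-coding genes of the annotation, and their loci measure 1314 kb together. HepG2 is a human hepatoblastoma line, and the cells were taken 3 days after transfection with an siRNA against ANP32B (siANP32B) or a non-targeting siRNA (siControl). Of the 8 CUT&RUN libraries, 4 were made with an antibody to the histone variant macroH2A1, 2 per siRNA, and 4 with IgG, which were not analysed here. CUT&RUN releases the DNA around an antibody with a tethered nuclease, so the libraries report where macroH2A1 sits and not how strongly a gene is transcribed. No expression values were among the files, so neither the depletion of ANP32B nor the liver identity of the cells was checked here.

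Paired-like homeobox genes encode DNA-binding transcription factors that act in the early embryo. PITX1 is known for hindlimb and pituitary development and PITX3 for the lens and the dopamine neurons of the midbrain. ALX1 and ALX4 act in the mesenchyme of the face and skull, and OTX1 and OTX2 in the forebrain, eye and inner ear. None of them is a known marker of hepatocytes. macroH2A1 is a form of histone H2A with a bulky globular domain at its tail, found on broad stretches of often weakly transcribed chromatin, and ANP32B is a histone chaperone that the study tested for a role in placing macroH2A.

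Each anti-macroH2A1 library has a deposited list of broad enriched domains, called separately, with 7530 and 7404 domains in the siANP32B libraries and 8623 and 8116 in the siControl libraries. The values given are the share of a locus, in steps of 1 kb, that these domains take up. The depth of the libraries is unknown, and a stretch without a domain is one the caller did not list, not one shown to lack macroH2A1. Because the same values chose the genes, the coverage, borders and regions below describe the loci and no test was made of them. The labels number the replicates but do not say whether they came from separate cultures, so the spread between them may be technical.

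RefSeq promoter sequences of GRCh38.p14, the assembly of hg38, covering 250 bases before to 50 after the transcript start, were at hand for 4 of the 6 members, with 1 each for PITX1, PITX3 and OTX1 and 2 for OTX2. They are shown because the loci differ in where the domains end relative to these starts, and capitals mark each CpG, the site of DNA methylation.
PITX3 (chr10:102241463-102241762, minus strand): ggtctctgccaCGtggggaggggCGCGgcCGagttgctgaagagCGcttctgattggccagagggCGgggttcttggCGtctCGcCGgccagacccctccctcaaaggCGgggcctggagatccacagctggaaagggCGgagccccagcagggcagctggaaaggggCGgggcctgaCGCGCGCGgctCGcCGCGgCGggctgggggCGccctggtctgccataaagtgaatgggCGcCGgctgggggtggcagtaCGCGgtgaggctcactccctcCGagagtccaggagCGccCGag
PITX1 (chr5:135034179-135034478, minus strand): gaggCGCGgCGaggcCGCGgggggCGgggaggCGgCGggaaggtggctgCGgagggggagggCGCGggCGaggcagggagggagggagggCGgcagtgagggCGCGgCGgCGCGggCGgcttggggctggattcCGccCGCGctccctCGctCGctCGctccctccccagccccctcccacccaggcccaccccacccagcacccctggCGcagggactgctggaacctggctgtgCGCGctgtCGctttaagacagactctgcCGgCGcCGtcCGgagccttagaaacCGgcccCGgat
OTX1 (chr2:63050580-63050879, plus strand): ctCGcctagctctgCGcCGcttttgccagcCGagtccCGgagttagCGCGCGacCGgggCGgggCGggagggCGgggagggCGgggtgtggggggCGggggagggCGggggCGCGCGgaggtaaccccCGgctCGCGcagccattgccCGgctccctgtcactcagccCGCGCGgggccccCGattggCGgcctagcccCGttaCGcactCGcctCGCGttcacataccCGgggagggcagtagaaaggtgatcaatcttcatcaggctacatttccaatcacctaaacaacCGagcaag
OTX2 (chr14:56810430-56810729, minus strand): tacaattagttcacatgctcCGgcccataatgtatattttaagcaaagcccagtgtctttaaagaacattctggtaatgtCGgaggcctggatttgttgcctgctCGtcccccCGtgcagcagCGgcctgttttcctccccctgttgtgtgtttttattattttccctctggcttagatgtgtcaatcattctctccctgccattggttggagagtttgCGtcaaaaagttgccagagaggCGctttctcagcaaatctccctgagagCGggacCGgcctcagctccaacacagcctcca

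The promoters of PITX1, PITX3 and OTX1 were rich in CpG and the OTX2 promoters were not. The PITX1 window held 35 CpG, an observed to expected ratio of 0.795, and the OTX1 window held 34 with a ratio of 0.938. The PITX3 window held 28 with a ratio of 0.749. The OTX2 window printed above held 9 CpG with a ratio of 0.493, and its second window, chr14:56805618-56805917, held 6 with 0.353. The median ratio over 22198 promoters of protein-coding genes was 0.737. Among the 5 windows at hand, the PITX3 promoter alone was inside a domain, in siANP32B replicate 1 and siControl replicate 1. ALX1 and ALX4 had no window, so their promoters were not scored. The 4 other windows at hand were outside domains in all 4 libraries, as were 57.2% of all coding promoters.

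The 6 loci fell into 2 sorts. PITX3, ALX4 and OTX1 had a domain over or beside the gene in at least 3 libraries, whereas PITX1 and OTX2 had none in any library and ALX1 had part of a domain in 1 library. Over all 6 loci, 157 and 202 kb of the 1314 kb lay in domains in the siANP32B libraries and 267 and 202 kb in the siControl libraries. That is 11.9% and 15.4% after siANP32B against 20.3% and 15.4% after siControl, a mean of 13.7% ± 2.42 against 17.8% ± 3.50 (SD, n = 2 each). The groups met at the value of both second replicates. The mean share over all protein-coding loci ran the other way, at 31.0% and 28.3% in siANP32B libraries and 28.1% and 24.2% in siControl libraries. At the 6 loci, the difference of -4.19 points came mostly from OTX1 in 1 library. It was 8.77 points over the gene spans alone and 3.65 points with the 5000 best-scored domains of each library, so its sign rests on the window and on which domains are counted.

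**Figure D1:**
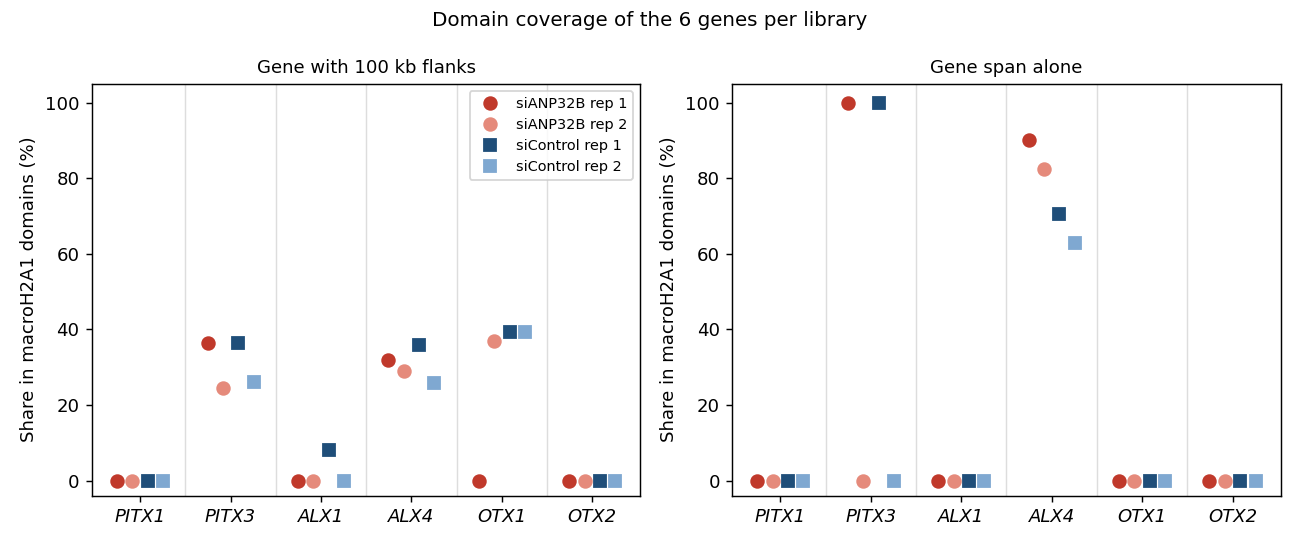
Share of each gene with 100 kb flanks (left) and of the gene span alone (right) that lay in macroH2A1 domains, in percent, for each of the 2 siANP32B libraries (circles) and 2 siControl libraries (squares). The ALX4 gene span was at 90.2% and 82.4% in siANP32B libraries and 70.6% and 62.7% in siControl libraries, while PITX1, ALX1, OTX1 and OTX2 spans were at 0% throughout.

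Among all protein-coding loci of the same construction, the mean share over the 4 libraries had a median of 22.8% and quartiles of 4.87% and 44.1%. PITX3 at 30.8%, ALX4 at 30.7% and OTX1 at 28.8% lay above that median and inside the quartiles. ALX1 at 2.03%, PITX1 at 0% and OTX2 at 0% lay below the lower quartile. A locus without any domain in the 4 libraries was found for 16.4% of protein-coding genes, and for 2 of the 6 members. A domain in every library was found in the locus of 63.2% of protein-coding genes, and at PITX3 and ALX4 among the members. The gene span alone was free of domains in all 4 libraries for 46.9% of protein-coding genes and for 4 members, PITX1, ALX1, OTX1 and OTX2.

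ALX4, on chromosome 11 (chr11:44260440-44310139), was the sole member whose gene body was covered by at least 50% in every library. That state was found for 11.6% of protein-coding genes and for 10 of the 33 other genes of the paired class described below, so it is not particular to ALX4. ALX4 is best known from skull defects in people with a damaged copy. Of the 51 kb steps of the gene, 46 and 42 were in domains in the siANP32B libraries and 36 and 32 in the siControl libraries, which is 90.2% and 82.4% against 70.6% and 62.7%. Both siANP32B libraries were above both siControl libraries. The same order held for 8.91% of protein-coding gene spans, and nothing is read from it here because the members were chosen with these values known. Of the gene, 27 kb were in a domain in all 4 libraries and 3 kb in none.

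Each library showed a pair of domains at ALX4, split by a short gap near the higher-coordinate end of the gene. The domain over the gene ran from 44265001 to 44315000 and from 44263001 to 44302000 in the siANP32B libraries, against 44275001 to 44317000 and 44271001 to 44303000 in the siControl libraries. Its lower border therefore lay 9 kb farther out on average after siANP32B, with both siANP32B borders beyond both siControl borders. The share of domains with this border order over the genome was not computed, so nothing is read from it. Over the whole lists the median domain length was 47 and 48 kb in siANP32B libraries and 38 and 39 kb in siControl libraries. The upper border of the ALX4 gene domain differed by -1.5 kb, less than between replicates. The second domain ran from 44321001 to 44351000 and from 44308001 to 44342000 after siANP32B, against 44324001 to 44372000 and 44311001 to 44344000 after siControl. The gap between the domains was 6 kb in both siANP32B libraries and 7 and 8 kb in the siControl libraries. EXT2, a heparan sulfate polymerase gene that ends 8.48 kb from ALX4, was in no domain in any library.

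With its flanks, the ALX4 locus did not keep that order. The share was 31.9% and 29.1% in siANP32B libraries and 35.9% and 25.9% in siControl libraries, so the siANP32B values lay between the siControl ones. The siControl replicate 1 value owes its height to the second domain, 48 kb long there against 30 and 34 kb after siANP32B and 33 kb in the other siControl library. Over 500 kb on either side the share was 38.2% and 35.7% in siANP32B libraries and 29.7% and 19.5% in siControl libraries, an order seen for 33.6% of protein-coding genes at that width.

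ALX4 also held the 2 regions of the authors' deposited table that fell in any of the 6 loci, and neither was called. Of the 4474 regions of the authors' deposited table, 58.4% were lower and 3.82% higher after siANP32B when called at an adjusted p of 0.05, so 0 of 2 lower is set against a background in which most regions were lower. The region inside the gene, chr11:44282001-44292000, had a log2 fold of -0.06 from a single window and an adjusted p of 0.829 (Benjamini-Hochberg) in the authors' deposited table. The region beyond the gene, chr11:44324001-44340000, had a log2 fold of -0.32, with 0 of 7 windows down or up and an adjusted p of 0.382 in the authors' deposited table. The median of these folds was -0.19, against -0.54 over all regions of the authors' deposited table. Both regions lay wholly inside domains in all 4 libraries. The fold is that of a representative window, and the scaling between libraries was not stated in the notes used here. Negative folds were read as lower after siANP32B because called regions with positive folds were at least 50% inside domains more often in siANP32B libraries, 99.4% in both, than in siControl libraries, 88.3% and 80.7%.

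**Figure D2:**
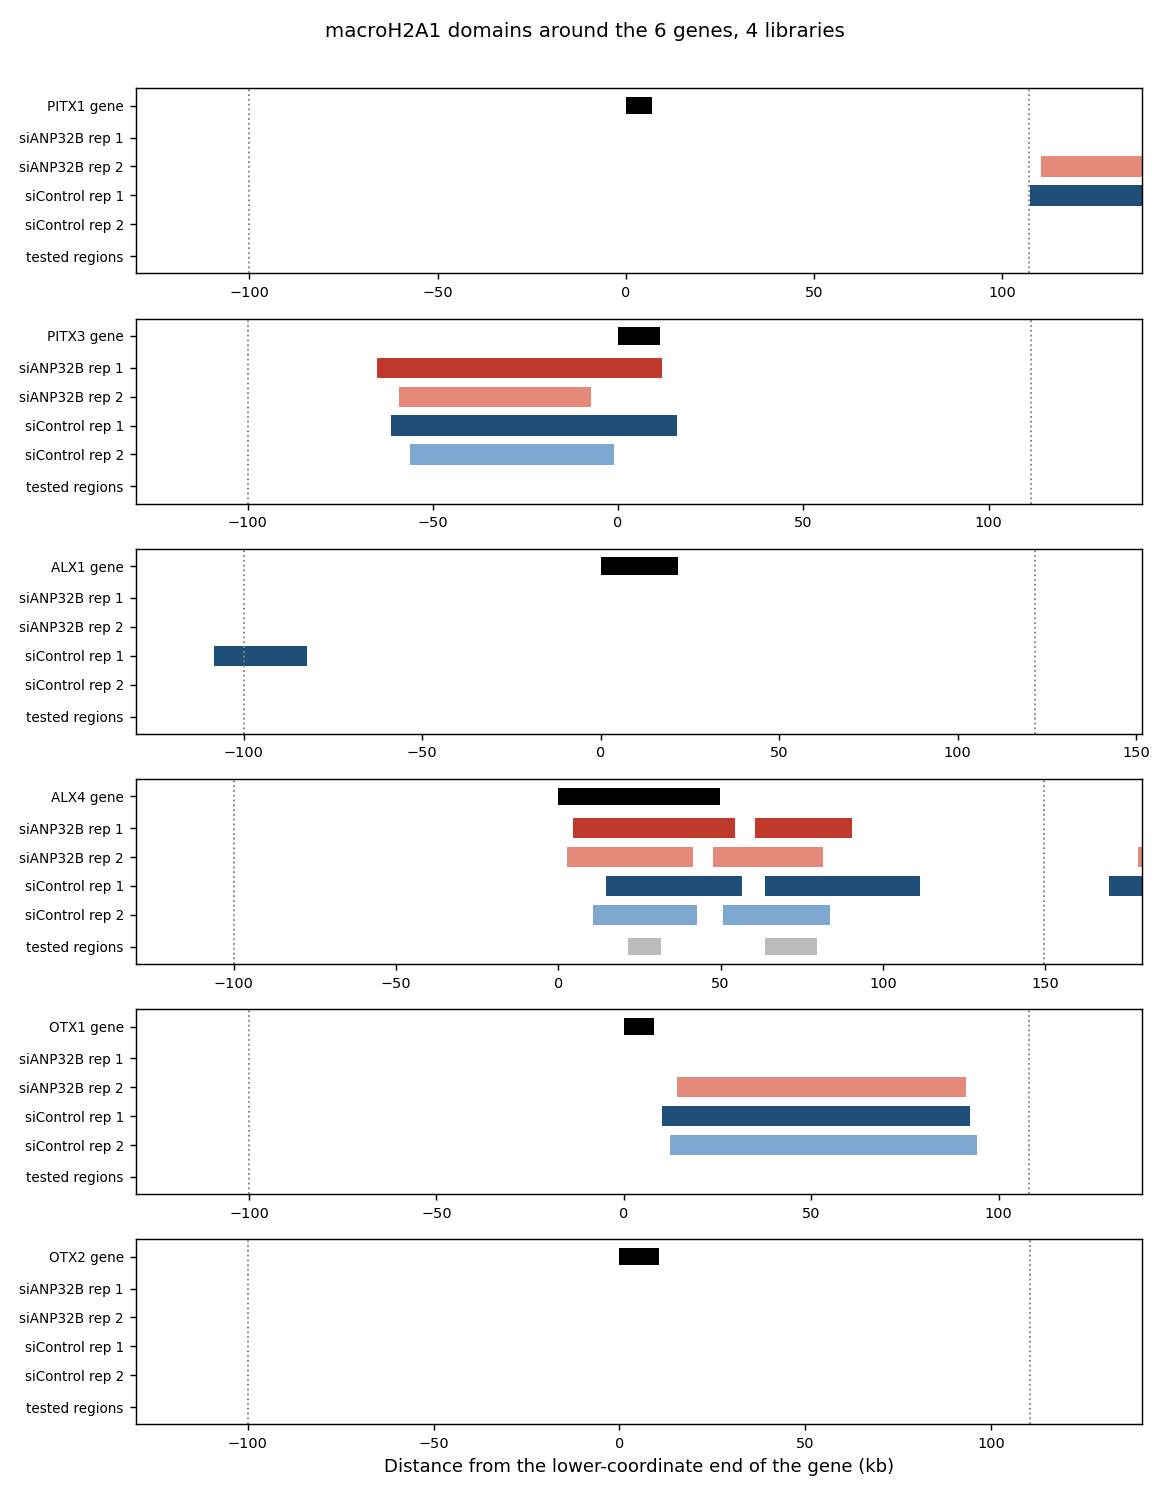
Domains within 130 kb of each gene, drawn as bars in rows for siANP32B replicates 1 and 2 and siControl replicates 1 and 2, with the gene in black above and tested regions in light grey below; the horizontal axis is distance from the lower-coordinate end of the gene in kb and dotted lines mark the 100 kb flanks. ALX4 had a pair of domains in each of the 4 libraries and the 2 tested regions, PITX3 had a domain reaching the gene in both first replicates, and OTX1 had a domain beside it in 3 libraries.

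PITX3, on chromosome 10 (chr10:102230189-102241512), lay at the edge of a domain whose end differed more between replicates than between siRNAs. The gene span was 100% covered in siANP32B replicate 1 and 0% in siANP32B replicate 2, against 100% in siControl replicate 1 and 0% in siControl replicate 2. The domain ran from 102165001 to 102242000 and from 102171001 to 102223000 after siANP32B, against 102169001 to 102246000 and 102174001 to 102229000 after siControl. In siANP32B replicate 1 it ended under 1 kb beyond the annotated gene and so included the promoter, and in the second replicates it stopped 7.19 kb (siANP32B) and 1.19 kb (siControl) short of the gene. Within each replicate number the siANP32B domain had its end at a lower coordinate, a difference of -4 kb in replicate 1 and -6 kb in replicate 2. The share of the locus was 36.3% and 24.5% in siANP32B libraries and 36.3% and 25.9% in siControl libraries. The means of 30.4% ± 8.34 after siANP32B and 31.1% ± 7.34 after siControl (SD, n = 2 each) differed by less than the spread between replicates.

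The neighbours of PITX3 shared that edge. ELOVL3, a fatty acid elongase gene that ends 0.599 kb from PITX3, was covered by 100% and 0% after siANP32B and by 100% and 83.3% after siControl. GBF1, which encodes an exchange factor of Golgi transport, overlaps PITX3 by 10.9 kb, and 7.84% and 0% of it was covered after siANP32B against 10.5% and 0% after siControl. Coverage here cannot be assigned to PITX3 or GBF1. NOLC1 and PPRC1, on the far side of the domain, were in no domain in any library. No tested region of the authors' deposited table lay within 1008 kb of PITX3.

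OTX1, on chromosome 2 (chr2:63049735-63057831), was outside domains in all 4 libraries, with a domain starting a few kb beyond its higher-coordinate end in 3 of them. The promoter lies at the other end of the gene, since OTX1 is on the plus strand. That domain ran from 63064001 to 63141000 in siANP32B replicate 2, against 63060001 to 63142000 and 63062001 to 63144000 in the siControl libraries. In siANP32B replicate 1 no domain was listed there, so the locus was at 0% and 36.8% after siANP32B and at 39.2% in both siControl libraries. Both siANP32B values were below both siControl values, an order found for 7.73% of protein-coding loci and for this member alone among the 6. The opposite order, found for 23.3% of protein-coding loci, was seen at 0 of the 6 members.

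The domain beside OTX1 was weakly scored in control cells. By the deposited score, which ranks domains within a list, it stood at 97.3% and 88.7% of the way down the lists of siControl replicates 1 and 2, and at 49.9% in siANP32B replicate 2. With the 5000 best-scored domains per library it was kept in siANP32B replicate 2 and in neither siControl library, and the sign of the difference at OTX1 turned to 18.4 points. No tested region overlapped it. A longer domain that ends below OTX1, inside the span of its neighbour EHBP1, had 1 steady border and 1 that differed. It ended at 62707000 and 62710000 after siANP32B and at 62707000 and 62708000 after siControl. Its length was 497 and 430 kb after siANP32B against 331 and 258 kb after siControl, and this domain was picked out after its values were seen. OTX1 is on chromosome 2 and OTX2 on chromosome 14, and HepG2 carries extra copies of both chromosomes under either siRNA.

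ALX1 and OTX2 lay in wide stretches with few or no domains, and PITX1 in a narrower one. At PITX1, on chromosome 5 (chr5:135027734-135034789), the nearest domain was on the higher-coordinate side, at 212 and 103 kb in the siANP32B libraries and at 100.2 and 208 kb in the siControl libraries. The closest of these starts just outside the flank, so the absence of domains at PITX1 depends on the width chosen, whereas the ALX1 domain in siControl replicate 1, at 82.2 kb from the gene, is just inside. On the other side of PITX1 the nearest domain was at 426 and 515 kb after siANP32B and at 515 and 511 kb after siControl. PCBD2 and CATSPER3, the coding neighbours of PITX1, were in no domain in any library.

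Farther out, PITX1 was the member closest to regions called lower. The region at chr5:135409001-135430000, 374 kb from the gene, had a log2 fold of -0.66 (adjusted p 0.00923), with 11 of 11 windows down in the authors' deposited table. The next, chr5:135475001-135522000, had a log2 fold of -0.63 (adjusted p 0.00723), with 14 of 25 windows down, in the authors' deposited table. Both were wholly inside domains in all 4 libraries. With 500 kb flanks the PITX1 locus was at 19.0% and 16.6% after siANP32B and at 26.3% and 15.0% after siControl. The medians over protein-coding loci at that width were 29.4% and 27.2% in siANP32B libraries and 26.3% and 22.02% in siControl libraries, so siControl replicate 1 was at its median.

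ALX1, on chromosome 12 (chr12:85280220-85301784), had 18 kb of its 222 kb locus in a domain in siControl replicate 1 and none in the other 3 libraries, and a single library carries that value. A domain in exactly 1 of the 4 libraries was found for 5.77% of protein-coding loci. The next domain on the higher-coordinate side was present in all 4 libraries, at 504 and 489 kb from the gene after siANP32B and at 505 and 497 kb after siControl. It covered 100% of the tested region nearest to ALX1, chr12:85806001-85844000, in both siANP32B libraries and 97.4% and 92.1% in siControl libraries. That region had a log2 fold of 0.54 and an adjusted p of 0.192 in the authors' deposited table, which did not pass. On the lower side, leaving out the siControl replicate 1 domain, the nearest was 4297 and 2619 kb away after siANP32B and 2636 kb away in siControl replicate 2.

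OTX2, on chromosome 14 (chr14:56799905-56810479), was the member most uniformly without domains. Within 500 kb on either side 0.791% and 0% of the sequence was covered in siANP32B libraries and 0.692% and 0% in siControl libraries, far under the medians given for PITX1. ALX1 was likewise sparse at that width, with 0% and 1.08% after siANP32B and 2.54% and 0.294% after siControl. The first domain beyond OTX2 began 493 and 535 kb away after siANP32B and 494 and 531 kb away after siControl. The nearest tested region, chr14:57341001-57358000, was 76.5% inside domains in siANP32B replicate 2 and wholly inside in the other 3 libraries, in siControl replicate 1 in a second domain. It was lower with a log2 fold of -0.85 (adjusted p 7.79e-05) and 8 of 8 windows down in the authors' deposited table.

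**Figure D3:**
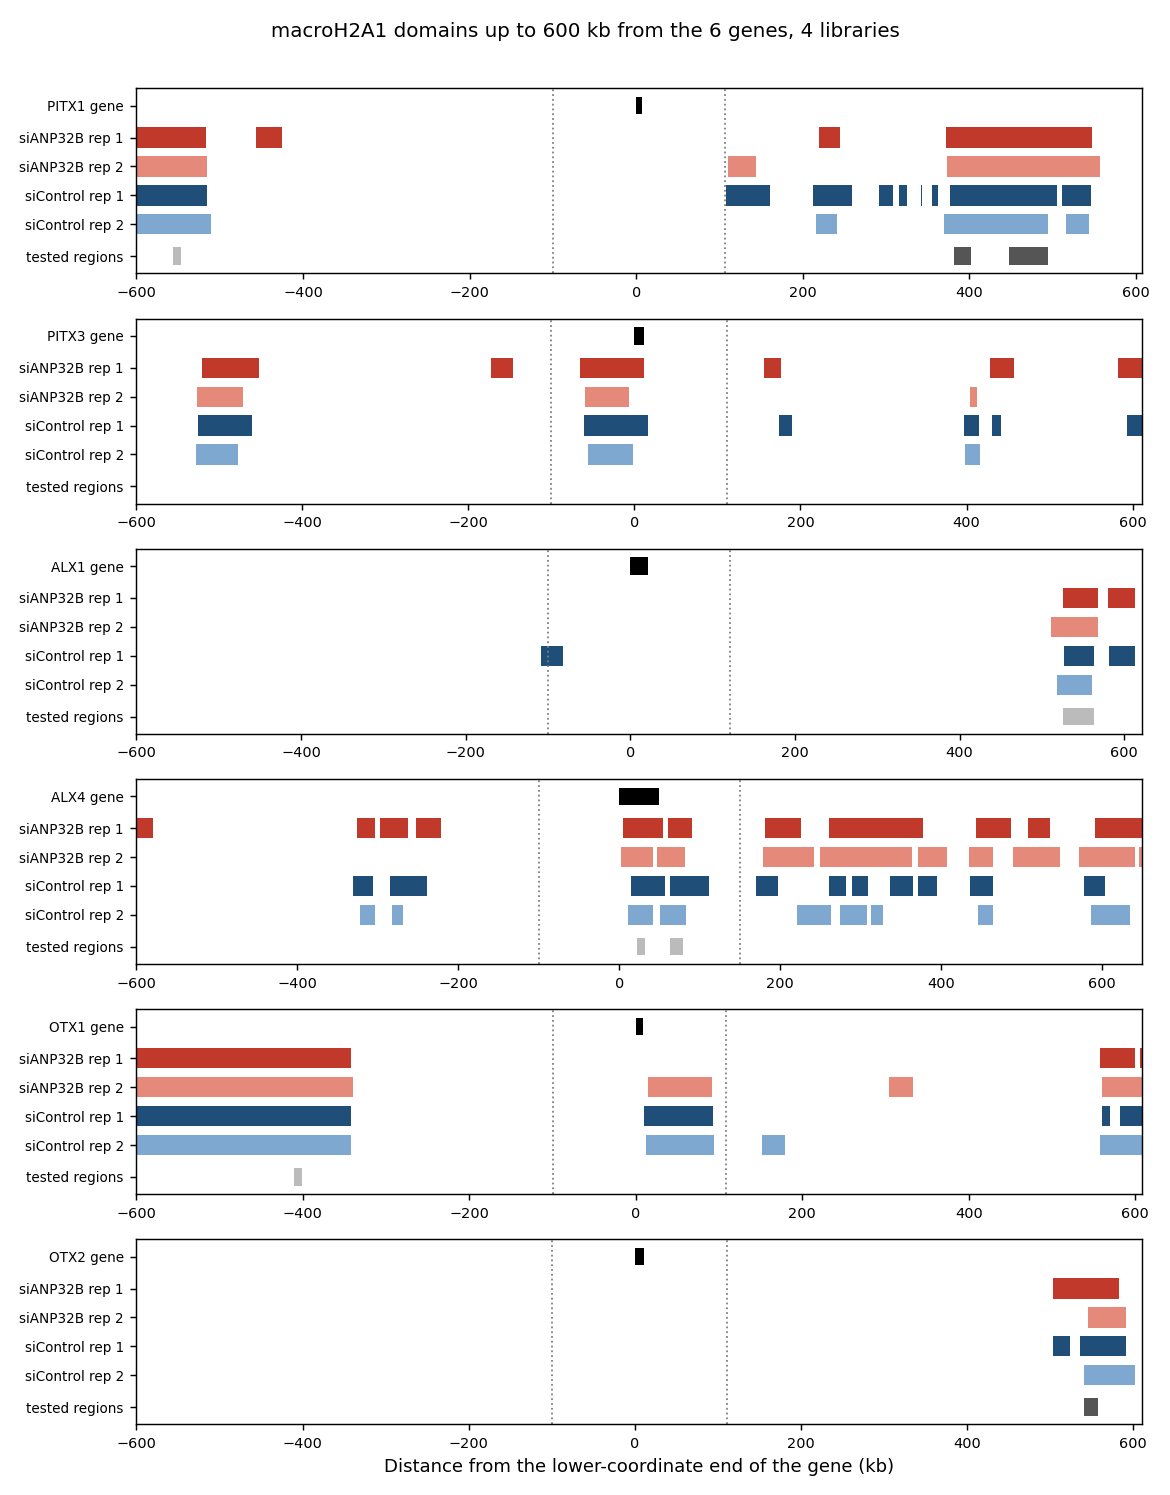
Domains up to 600 kb from each gene, in rows for siANP32B replicates 1 and 2 and siControl replicates 1 and 2, with the gene in black, tested regions below (dark grey lower, light grey not called) and dotted lines at 100 kb from the gene; the horizontal axis is distance from the lower-coordinate end of the gene in kb. OTX2 and ALX1 lay in stretches nearly free of domains, and the 3 regions called lower lay 374 to 531 kb from PITX1 and OTX2.

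Other genes of the paired class gave a setting for these values. Of 33 such genes, 5 had no domain in their locus in any library, namely GSC2, PRRX1, SHOX2, ESX1 and NOBOX, and these share the profile of PITX1 and OTX2. By the distance between 4-library profiles they were also the nearest to ALX1. The gene nearest to PITX3 and ALX4 was MIXL1, at distances of 12.9 and 10.3 points. The nearest to OTX1 was DUXA, at 29.6 points, so no close match to OTX1 was found. DUXA was at 22.4% in siANP32B replicate 1, where OTX1 was at 0%. MIXL1 was at 29.3% and 27.8% after siANP32B and 28.8% and 19.0% after siControl, and its locus overlapped 1 lower region, unlike those of PITX3 and ALX4. These distances rest on 4 libraries. The median of the mean share was 15.4% over the 6 members, 26.8% over the 33 other genes and 62.5% over 16 liver identity factors.

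Of the 33 loci, 16 overlapped a tested region and 11 a lower region of the authors' deposited table. The background over protein-coding loci was 41.7% with a tested region, 28.1% with a lower one and 1.94% with a higher one, and the members had 1, 0 and 0 of 6. The 27 regions of the 33 genes had a median log2 fold of -0.58 in the authors' deposited table, and genes that lie close together, such as CRX and TPRX1, share regions. The lower regions with the smallest p-values were at VSX1, a retinal factor gene (log2 fold -0.80), PRRX2 (-0.86), 4.65 kb from its region, and RAX2 (-0.91), at 99.8 kb, in the authors' deposited table. The gene span of CRX, the third gene of the OTX family, was fully covered in all 4 libraries. Its locus was at 72.6% and 65.0% after siANP32B and 74.0% and 63.2% after siControl, and overlapped 4 lower regions of the authors' deposited table. CRX and TPRX1 are named here outside the naming rule given below. Both siANP32B values were above both siControl values at 6 of the 33 loci, against 23.3% of all protein-coding loci. HESX1, picked out after its values were seen, was the 1 locus with both siANP32B values, 54.5% and 56.3%, below both siControl values, 70.6% and 69.3%. That order was found for 7.73% of all protein-coding loci, so nothing is read from either count.

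**Figure D4:**
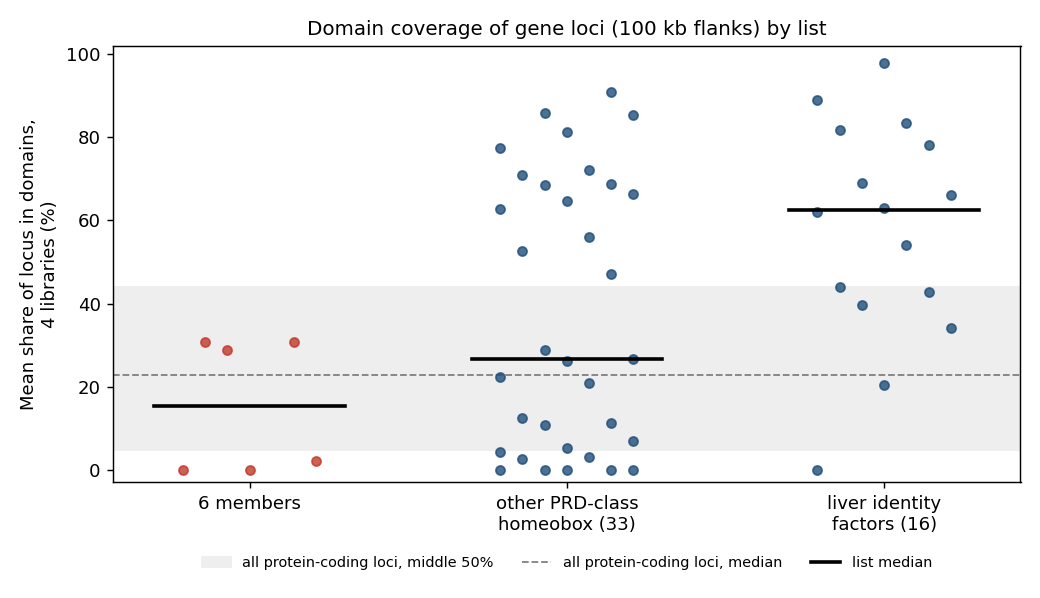
Mean share of each gene locus (100 kb flanks) in macroH2A1 domains over the 4 libraries, in percent, for the 6 members (red) and 2 comparison lists (blue); each point is a gene, black bars are list medians, the grey band is the middle 50% of all protein-coding loci and the dashed line their median of 22.8%. The means of the members lay either near 30% or near 0%. The OTX1 mean joins 0% in siANP32B replicate 1 with 36.8% in replicate 2 and 39.2% in both siControl libraries. The liver identity factors had the highest median, 62.5%.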

How the data were processed

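The submitters' processing notes name edgeR, SICER, deepTools, SAMtools, Bowtie2 and Trim Galore with build hg38; their settings were not given in the sources used here. As deposited by the authors, there is a domain list per anti-macroH2A1 library, with a score per domain whose scale is not stated and which served here only to rank domains within a list. The authors' deposited table gives for each region, per the file headers, its p-value and false discovery rate, the log2 fold of a representative window (read as log2 by the convention of edgeR), and counts of windows, not reads; it has 0 columns with values per sample, so no count test was made. These rates are Benjamini-Hochberg values over all 4474 regions (largest difference 1.11e-15).

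Domain ends were closed to the 1 kb grid, and coverage is the percent of 1 kb steps of a gene span, with flanks of 100 kb, in domains (Python 3.11.15, pandas 2.3.3). The calculation was tested on simulated data. Regions were called at a rate of 0.05 with the authors' direction and assigned by any overlap. Gene positions were those of RefSeq GRCh38.p14, and all 6 members and all list genes matched by symbol. Members, lists and tests were chosen with earlier results of these data known. Named genes were the members, their coding neighbours, and list genes with the smallest p-values, the extremes of coverage or the closest profiles; any other is marked. Some genes and lists that this rule takes are not reported here, and counts over a list leave them out. Alternatives were the flank, the best-scored domains, each library left out, the overlap, the false discovery rate and the loci on gained chromosomes. The IgG libraries were not used.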

Additional observations from a re-analysis of the deposited data

How the results depend on the processing

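The pooled difference over the 6 loci, siANP32B minus siControl, was -4.19 points. Without each library in turn it ranged from -6.66 to -1.71 points, and it was -3.57 points with flanks of 50 kb, -1.61 with 200 kb and -1.29 without the loci on chromosomes 2 and 14. It was 8.77 points over gene spans alone, where ALX4 dominates, and 3.65 points with the 5000 best-scored domains per library. Those domains leave out the OTX1 domain in both siControl libraries and the ALX4 gene domain in siControl replicate 1. The cause of the lower scores was not tested. A fixed 5000 keeps a larger part of the siANP32B lists, of 7530 and 7404 domains, than of the siControl lists, of 8623 and 8116. Of 24 further settings for single loci, 6 moved the value by more than the replicate spread, all at PITX1, ALX4 or OTX1. The counts of 0 lower and 0 higher regions were also 0 with flanks of 200 kb, the one alternative that could have raised them. The lower border of the ALX4 domain differed by -9 kb. With the best-scored domains it differed by -7 kb, against 1 siControl library alone. No paired analysis was possible because no result here comes from a test; same-numbered differences are given as values. Same-numbered libraries had a base-pair Jaccard index of 0.618 and 0.59 genome-wide, against 0.644 and 0.629 within a group, and of 0.493 and 0.87 over the 6 loci, against 0.483 and 0.675 within a group. At PITX3 and ALX4, 12 of 12 same-numbered border differences lay at lower coordinates in siANP32B, by 1 to 21 kb. These are starts and ends of the same few domains, so they are not independent, and the members were chosen on their borders. The share of domains with this order over the genome was not computed, so nothing is read from the count. At OTX1, where replicate 2 alone had the domain under both siRNAs, the start differed by 2 kb and the end by -3 kb. Depth is unknown, which limits every statement on absent domains.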

Other observations

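The motif TAATCC, which PITX and OTX factors are known to bind in vitro, was searched on both strands of the promoter windows. It occurred in 0 of the 5 member windows and in 5.47% of the 22198 coding promoters. No match says only that these letters are not in these windows.

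Over all coding promoters, 9.92% of those with a CpG ratio of at least 0.6 lay in a domain in all 4 libraries, against 17.7% of those under 0.6. The OTX2 windows, the CpG-poor ones among the member windows at hand, were outside domains in all 4 libraries. So were 55.7% of coding promoters with a ratio under 0.6 and 58.1% of the others. The PITX3 window, with a ratio of 0.749, was inside a domain in 2 libraries.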
